A study of Homo sapiens with 8 samples.

Results

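ELF3, EHF, GRHL1, GRHL2, OVOL1, ESRP1 and ESRP2 encode regulators that keep epithelial cells epithelial. The 7 genes were chosen by symbol, by a rule that used no measured value but with earlier results of these data known. All 7 were found among the 30017 gene symbols of the deposited tables. Expression was read as TPM (an abundance per transcript length, scaled to the same total in each library). Of the 7 genes, 2 (ELF3 and EHF) reached a mean of at least 1 TPM over the 8 libraries and were tested among 13141 genes, 3 (GRHL1, OVOL1 and ESRP2) were detected below that level, and 2 (GRHL2 and ESRP1) were listed at 0 in every library.

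The cells were A549-S3KO, a derivative of the human lung adenocarcinoma line A549 in which endogenous SMAD3 was knocked out, so every group lacked it. Smad3 carries the TGF-β signal from the receptor to DNA, and was put back with a lentivirus in the 4 groups: Smad3(RA/KP), the double substitution R104K A105P in the DNA-binding MH1 domain, exposed to TGF-β at 1 ng/ml during 8 h; Smad3(RA/KP) untreated; wild-type Smad3 with the same exposure; and wild-type Smad3 untreated. Cells were detached with trypsin and seeded on collagen, and TGF-β, where given, was added at seeding. There were n = 2 libraries a group, described as independent experiments. Infected cells had been cloned by limiting dilution, and the wild-type clone was picked for low expression. The clones sequenced are not named, so a clone and its form of Smad3 cannot be told apart. All comparisons asked what TGF-β did to these genes in each line and whether the form of Smad3 changed it.

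ELF3 and EHF are ETS-domain transcription factors restricted to epithelia. Grainyhead-like factors (GRHL1, GRHL2) and OVOL1 activate or protect epithelial junction genes and oppose ZEB and SNAI repressors, while ESRP1 and ESRP2 are RNA-binding proteins that hold the epithelial exon choice in transcripts such as those of FGFR2 and CD44. TGF-β is the classical inducer of epithelial-mesenchymal transition, in which these regulators are known to be lost.

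ELF3 and EHF are shown by the sequence at their RefSeq starts, because they were the members that changed with TGF-β; 3 of the 7 genes (ELF3, EHF and GRHL1) matched a RefSeq promoter window of 250 bases before to 50 bases after the start (GRCh38.p14). Capitals mark CAGAC, the box that the MH1 domain of Smad3 binds, and CACCTG, the E-box form bound by SNAI and ZEB repressors. Both strands were searched, together with AACCGGTT, a Grainyhead-type site, and AGGAAG, a site with the ETS core.
ELF3, chr1:202010337-202010636, plus strand: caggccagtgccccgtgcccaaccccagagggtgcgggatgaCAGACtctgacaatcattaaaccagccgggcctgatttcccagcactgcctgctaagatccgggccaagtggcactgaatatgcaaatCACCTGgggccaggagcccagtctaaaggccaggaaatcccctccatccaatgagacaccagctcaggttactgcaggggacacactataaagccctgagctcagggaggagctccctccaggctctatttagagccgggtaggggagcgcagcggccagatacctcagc
EHF, chr11:34632316-34632615, plus strand: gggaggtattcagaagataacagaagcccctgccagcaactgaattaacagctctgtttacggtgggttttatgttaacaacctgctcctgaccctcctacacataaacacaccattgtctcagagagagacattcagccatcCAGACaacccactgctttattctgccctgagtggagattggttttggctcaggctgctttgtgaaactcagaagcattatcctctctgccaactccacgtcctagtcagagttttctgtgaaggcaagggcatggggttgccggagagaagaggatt
The ELF3 window held 1 CAGAC, which began at position -208 from the start, and 1 CACCTG at position -120. The EHF window shown held 1 CAGAC, at position -107. A second EHF window, chr11:34624007-34624306, and the GRHL1 window, chr2:9951443-9951742, held none of the 4 motifs. Of the EHF windows, the one that is printed is thus the one with a match. Both lie inside the gene as the deposited tables place it, from 34621041, and the window without a match is nearer that start. CAGAC occurred in 45.3% of 35116 windows of the same length, CACCTG in 20.6%, AGGAAG in 33.6% and AACCGGTT in 0.134%. The matches describe letters, and binding was not measured.

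ELF3 fell with TGF-β in both lines. The gene lies on chromosome 1, 202010519 to 202017188 of GRCh38, plus strand, as the deposited tables place it. It had 92.8 and 20.9 TPM in treated Smad3(RA/KP) cells, against 297 and 89.1 TPM in untreated Smad3(RA/KP) cells. Treated wild-type cells had 41.5 and 18.1 TPM, against 250 and 98.4 TPM in untreated wild-type cells. The treated and untreated values did not overlap in wild-type cells, but in Smad3(RA/KP) cells the higher treated library exceeded the lower untreated one. Within each replicate number the treated library was the lower in all 4 pairs, by 3.20- and 4.27-fold in Smad3(RA/KP) cells and by 6.03- and 5.44-fold in wild-type cells.

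As group means, ELF3 was at 56.8 ± 50.9 TPM in treated and 193 ± 147 TPM in untreated Smad3(RA/KP) cells (SD, n = 2 each), and at 29.8 ± 16.6 TPM in treated and 174 ± 107 TPM in untreated wild-type cells (SD, n = 2 each). The test was limma on log2(TPM + 1) across all 13141 genes with the replicate number as a block, Benjamini-Hochberg adjusted, and a gene was called at an adjusted p under 0.05. The log2 fold change of ELF3 with TGF-β was -1.85 in the Smad3(RA/KP) line (SE 0.23, 95% interval -2.37 to -1.34, adjusted p = 0.00279). In wild-type cells it was -2.47 (SE 0.23, 95% interval -2.99 to -1.96, adjusted p = 0.000651). Both calls held without any one library, and both were lost when the replicate number was not used as a block (adjusted p = 0.288 and 0.190 by limma, for Smad3(RA/KP) and wild-type cells). In bulk RNA, fewer cells that express ELF3 and less ELF3 RNA per cell cannot be told apart.

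ELF3 also varied widely within each group. Replicate 1 was above replicate 2 in all 4 groups, by 4.45-fold in treated and 3.33-fold in untreated Smad3(RA/KP) cells, and by 2.30-fold in treated and 2.54-fold in untreated wild-type cells. The fitted difference of replicate 1 over replicate 2 was 1.58 on the log2 scale, the 30th largest in absolute size among 13141 genes. Mapped sequence was 1.15 to 1.81 Gb a library and was lower in replicate 1 of every group; its part in the ELF3 difference was not tested. The mean base coverage of ELF3 was 16.7 to 209, and it ranked 475 to 1689 among all symbols in the untreated libraries.

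The fall of ELF3 was not shown to differ between the lines. The difference of the responses, Smad3(RA/KP) minus wild type, was 0.62 on the log2 scale (95% interval -0.11 to 1.35, unadjusted p = 0.0881, limma adjusted p = 0.881), so the interval still held a fall up to 1.35 log2 units smaller in Smad3(RA/KP) cells. In untreated cells, Smad3(RA/KP) against wild type gave 0.05 (95% interval -0.46 to 0.57, limma adjusted p = 1). With TGF-β it gave 0.67 (95% interval 0.15 to 1.19, unadjusted p = 0.0168, limma adjusted p = 0.624), and the values of the 2 lines overlapped. Few genes of any kind passed these comparisons: 3 of 13141 (0.0228%) for the difference of responses, 2 (0.0152%) between untreated lines and 1 (0.00761%) between treated lines, none of them among the 7.

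**Figure D1:**
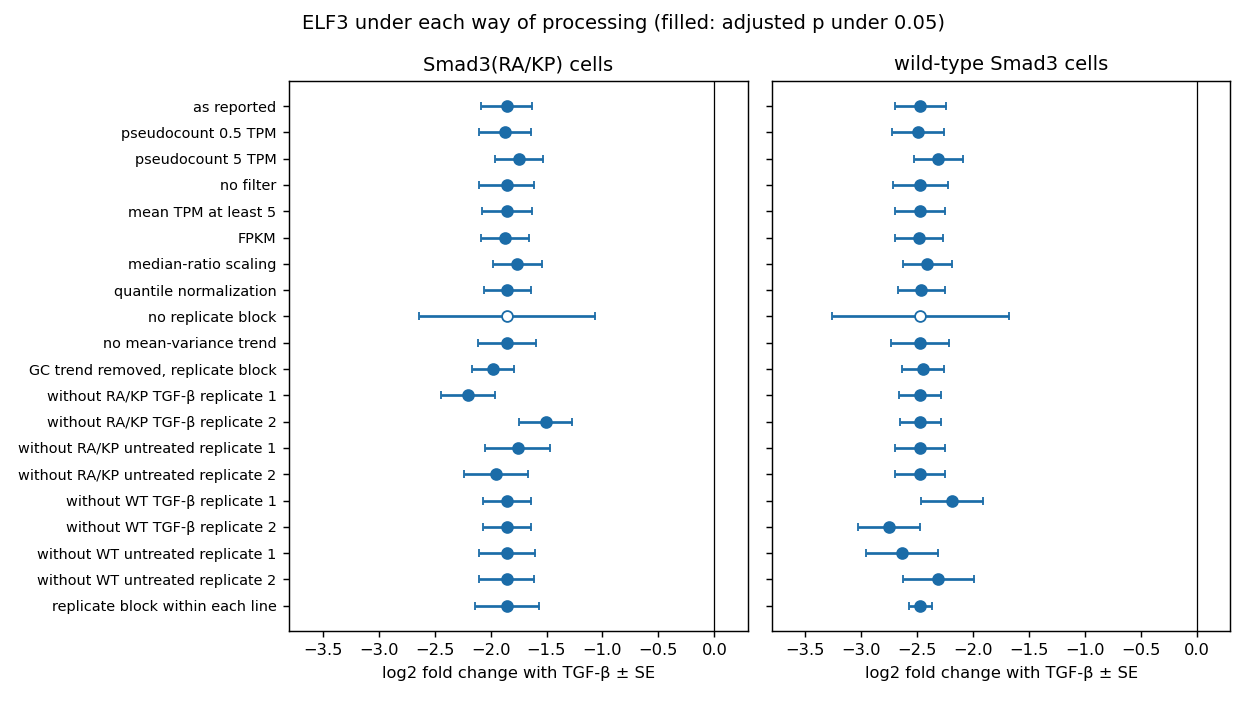
Log2 fold change of ELF3 with TGF-β, with its SE, in Smad3(RA/KP) cells (left) and wild-type cells (right) under each way of processing, filled where the adjusted p was under 0.05. Every value lies below 0, from -2.20 to -1.51 on the left and from -2.75 to -2.19 on the right, and the only open points are those with no replicate block.

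EHF, which belongs with ELF3 to the epithelium-specific ETS factors, was low throughout and fell with TGF-β in Smad3(RA/KP) cells. It lies on chromosome 11, 34621041 to 34663288, plus strand. It had 0.509 and 0 TPM in treated Smad3(RA/KP) cells, against 3.85 and 2.18 TPM in untreated Smad3(RA/KP) cells. Treated wild-type cells had 0 and 0.0351 TPM, against 2.17 and 0.967 TPM in untreated wild-type cells. No treated library reached the lowest untreated one in either line.

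The log2 fold change of EHF was -1.68 in Smad3(RA/KP) cells (95% interval -2.39 to -0.96, limma adjusted p = 0.0181) and -1.30 in wild-type cells (95% interval -2.01 to -0.58, limma adjusted p = 0.0551), where it did not pass. Called lower were ELF3 and EHF in Smad3(RA/KP) cells, where 1.5% of all genes tested were called lower (4.98% in either direction), and ELF3 in wild-type cells, where 1.74% were (4.68% in either direction). EHF reached the mean of 1 TPM needed for testing only through its untreated libraries, so its call adds no support to a count over the members. The call in Smad3(RA/KP) cells was lost without treated replicate 1 (adjusted p = 0.0887), treated replicate 2 (0.139) or untreated replicate 2 (0.0797) of that line, and with no block (0.0658), all by limma. In wild-type cells EHF passed with a pseudocount of 0.5 TPM (limma adjusted p = 0.0491), with no mean-variance trend (0.027) and with the GC trend removed (0.0444).

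The responses of EHF in the 2 lines differed by -0.38 on the log2 scale (95% interval -1.39 to 0.63, limma adjusted p = 0.895). Untreated Smad3(RA/KP) cells exceeded untreated wild-type cells by 0.65 (95% interval -0.06 to 1.37, limma adjusted p = 1), separated only by 2.18 TPM in the lower Smad3(RA/KP) library against 2.17 TPM in the higher wild-type library. The size of its change depends on the pseudocount: with 5 TPM added in place of 1 the log2 fold change was -0.60 in Smad3(RA/KP) cells and -0.38 in wild-type cells. The mean base coverage of EHF was listed at 0 to 0.678. In untreated Smad3(RA/KP) replicate 1 it was 0.678 at 2.34 FPKM, whereas ELF3 had 209 at 180 FPKM. Coverage and FPKM were thus in unlike proportion for the 2 genes, and the number of EHF reads cannot be taken from its coverage.

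GRHL1, a Grainyhead-like activator of desmosomal genes in the epidermis, was below 1 TPM in every library. It lies on chromosome 2, 9951663 to 10002284, plus strand. It had 0.16 and 0.269 TPM in treated Smad3(RA/KP) cells, against 0.483 and 0.251 TPM in untreated Smad3(RA/KP) cells, and the groups overlapped. In wild-type cells it was listed at 0 in both treated libraries, against 0.77 and 0.75 TPM in the untreated ones, with no overlap. Fitted without a filter on low values (18383 genes), its log2 fold change was -0.17 in Smad3(RA/KP) cells (limma adjusted p = 0.505) and -0.82 in wild-type cells (limma, SE 0.12, adjusted p = 0.0541), and the difference of 0.65 did not pass (unadjusted p = 0.0115, limma adjusted p = 0.844).

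GRHL2, on chromosome 8, which activates the E-cadherin and claudin genes in many epithelia, was listed at 0 in all 8 libraries. OVOL1, a zinc finger repressor of mesenchymal genes on chromosome 11 (65787034 to 65797219, plus strand), was listed at 0 in 7 libraries and at 0.18 TPM in untreated wild-type replicate 2. Each library listed 13980 to 14458 of the 30017 symbols at 0, so a value of 0 says no more than that.

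The splicing regulators were listed at or near 0. ESRP1, on chromosome 8, was listed at 0 in all 8 libraries. ESRP2, on chromosome 16 (68228547 to 68236233, minus strand), had 0.0343 and 0.219 TPM in treated Smad3(RA/KP) cells, against 0.118 and 0.122 TPM in untreated Smad3(RA/KP) cells. Treated wild-type cells had 0.146 and 0 TPM, against 0.182 and 0 TPM in untreated wild-type cells. The ESRP2 values of treated and untreated cells overlapped in both lines, with log2 fold changes of 0.0038 in Smad3(RA/KP) cells and -0.02 in wild-type cells without a filter (limma adjusted p = 1 for each).

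No gene with exons that ESRP proteins regulate was called at the level of the gene. Of 12 such genes 11 were tested, and 0 passed in either line by limma, where 4.98% of all genes passed in Smad3(RA/KP) cells and 4.68% in wild-type cells, so 0 is close to the background. In each line 1 of the 11 had an unadjusted p under 0.05, against 21.9% and 16.5% of all genes. FGFR2 was listed at 0 in all libraries. CD44, a hyaluronan receptor, stood at 127 to 226 TPM. The tables give levels per gene, and exon use was not measured.

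Of 17 other splicing regulators of the epithelial and mesenchymal states, 16 were tested and limma passed 0 in either line, again close to the 4.98% and 4.68% of all genes; 4 had an unadjusted p under 0.05 in Smad3(RA/KP) cells, against 21.9% of all genes, and 1 in wild-type cells, against 16.5%. RBM47, an RNA-binding protein that favours epithelial splicing, came nearest. It had 14.1 and 11.8 TPM in treated Smad3(RA/KP) cells, against 24.2 and 19.6 TPM in untreated ones, and 12.7 and 12.5 TPM in treated wild-type cells, against 21.9 and 19.0 TPM in untreated ones. The treated and untreated values did not overlap, and the log2 fold changes were -0.71 (limma adjusted p = 0.0682) in Smad3(RA/KP) cells and -0.65 (0.0933) in wild-type cells. RBM47 passed in Smad3(RA/KP) cells with FPKM (0.0465), and in wild-type cells with the GC trend removed (0.0495) or without untreated Smad3(RA/KP) replicate 1 (0.0477) or replicate 2 (0.0456).

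ELF3 changed its place among ETS transcripts. It held 12.9 and 3.65% of the summed TPM of 24 ETS genes in treated Smad3(RA/KP) cells, against 41.0 and 16.8% in untreated ones. In wild-type cells it held 7.58 and 3.12% with TGF-β, against 38.8 and 18.9% without. ELF3 was the first or second most abundant ETS transcript in every untreated library and the third to ninth in the treated ones, where ETS2 led with 133 to 199 TPM.

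Of 22 other ETS genes, 15 were tested, and in each line 2 were called higher and 1 lower. Calls of a rise made up 3.49% of all genes for the Smad3(RA/KP) line and 2.94% for the wild-type line. Calls of a fall made up 1.5% and 1.74%, in the same order. At an unadjusted p under 0.05 by limma were 4 of the 15 in each line, against 21.9% and 16.5% of all genes. The median log2 fold change was 0.07 in Smad3(RA/KP) cells, against -0.10 over all genes. In wild-type cells it was 0.06, against -0.06 over all genes. ETS2, a Ras-responsive activator, rose by 1.04 on the log2 scale in Smad3(RA/KP) cells (limma adjusted p = 0.0137) and by 1.30 in wild-type cells (0.0046). ELK3, a ternary complex factor, rose by 1.35 (limma adjusted p = 0.00464) and by 1.12 (0.00994). For Smad3(RA/KP) cells, both calls were lost without treated replicate 1 (limma adjusted p = 0.111 for ETS2 and 0.0531 for ELK3). For wild-type cells, both were lost without treated replicate 1, treated replicate 2 or untreated replicate 1 (0.0633 to 0.0995 for ETS2 and 0.102 to 0.167 for ELK3), and ELK3 also without untreated replicate 2 (0.0578).

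SPDEF, an ETS factor of secretory epithelia, was the 1 gene among the other ETS genes that was called lower in each line. It had 10.5 and 3.61 TPM in treated Smad3(RA/KP) cells, against 26.7 and 9.37 TPM in untreated ones, and 4.21 and 2.62 TPM in treated wild-type cells, against 18.6 and 10.2 TPM in untreated ones. As with ELF3, replicate 1 was the higher library of every group and the treated and untreated values overlapped in Smad3(RA/KP) cells only. Its log2 fold change was -1.22 in Smad3(RA/KP) cells (limma adjusted p = 0.0359) and -1.77 in wild-type cells (0.00652). The first call was lost without any one library except wild-type untreated replicate 2 (0.0513 to 0.258), and the second without wild-type treated replicate 1 (0.134) or untreated replicate 2 (0.0749).

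Over the 8 libraries, 9459 genes averaging 5 TPM or more were set against ELF3 by Pearson's correlation of log2(TPM + 1). The nearest were TBC1D8 (r = 0.994), C10orf54 (0.989), SPDEF (0.988), C9orf3 (0.987) and BMP4 (0.986), and the most opposite were MAP2K1 (-0.987), ZNF641 (-0.986), CAP1 (-0.981), LRRC41 (-0.973) and TPM4 (-0.970). EHF had r = 0.902 with ELF3. The points share the treatment and the replicate number, and the values describe these 8 libraries. TBC1D8 had 29.6 and 10.9 TPM in treated Smad3(RA/KP) cells, against 47.7 and 28.1 TPM in untreated ones, and 17.9 and 10.8 TPM in treated wild-type cells, against 43.7 and 28.9 TPM in untreated ones, so it too was higher in replicate 1 of every group.

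Of 13 other epithelial transcription factors, 8 were tested, and 1 was called higher and 2 lower in each line. Among all genes, the share called lower was 1.5% for the Smad3(RA/KP) line and 1.74% for the wild-type line. The share called higher was 3.49% and 2.94%, in the same order. In each line 5 of the 8 had an unadjusted p under 0.05 by limma, against 21.9% and 16.5% of all genes. Median log2 fold changes were -0.22 in Smad3(RA/KP) cells, against -0.10 over all genes, and -0.41 in wild-type cells, against -0.06. SPDEF was a member of this list as well.

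KLF5 and KLF4, zinc finger factors of proliferating and differentiating epithelia, passed in different lines. KLF5 changed by -0.98 in Smad3(RA/KP) cells (limma adjusted p = 0.0407) and by -0.73 in wild-type cells (0.113). KLF4 changed by -0.68 in Smad3(RA/KP) cells (limma adjusted p = 0.178) and by -1.12 in wild-type cells (0.0449). Neither difference between the lines passed. The KLF5 call was lost without any one library except Smad3(RA/KP) untreated replicate 1 (0.0678 to 0.276), and the KLF4 call without any one wild-type library (0.066 to 0.477). GRHL3, another Grainyhead-like factor below the level for testing, was listed at 0 in all 4 treated libraries, against 0.698 and 0.488 TPM in untreated Smad3(RA/KP) cells and 1.74 and 0.788 TPM in untreated wild-type cells.

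No epithelial junction or surface gene, the kind these regulators are known to sustain, was called lower with TGF-β, but the share of all genes called lower, 1.5% in Smad3(RA/KP) and 1.74% in wild-type cells, makes 0 of 27 close to the background. Of 36 genes, 27 were tested; limma called 3 higher and 0 lower in the Smad3(RA/KP) line, where 3.49% of all genes were called higher, and 2 higher and 0 lower in the wild-type line, where 2.94% were. At an unadjusted p under 0.05 in either direction were 12 of the 27 in Smad3(RA/KP) cells, against 21.9% of all genes, and 15 in wild-type cells, against 16.5% of all genes; the medians were -0.11 and -0.32, against -0.10 and -0.06 over all genes. CLDN4, a tight junction claudin, had 58.8 and 43.95 TPM in treated Smad3(RA/KP) cells, against 5.21 and 3.93 TPM in untreated ones. Treated wild-type cells had 62.6 and 37.6 TPM, against 4.27 and 2.18 TPM in untreated wild-type cells. The groups were far apart, with log2 fold changes of 3.23 (limma adjusted p = 0.000134) in Smad3(RA/KP) cells and 3.60 (9.4e-05) in wild-type cells.

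JUP, the junction protein plakoglobin, rose by 1.06 on the log2 scale in Smad3(RA/KP) cells (limma adjusted p = 0.0146) and by 0.91 in wild-type cells (0.0294). PRSS8, a membrane-anchored serine protease, rose by 1.81 in Smad3(RA/KP) cells (limma adjusted p = 0.0103), where it was at 3.03 and 2.05 TPM with TGF-β and listed at 0 in both untreated libraries, and it was tested only because of its treated level; its change of 1.07 in wild-type cells did not pass (0.0848). The calls in Smad3(RA/KP) cells were lost without either treated library of that line (0.0828 and 0.142 for JUP, 0.0866 and 0.0701 for PRSS8), and for JUP without untreated replicate 2 (0.0769). The JUP call in wild-type cells was lost without any one wild-type library (0.09 to 0.331) and without either treated Smad3(RA/KP) library (0.0512 in each case).

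CDH1 encodes E-cadherin, the adhesion receptor whose loss defines the transition, and was picked for mention after its values were seen. It had 5.69 and 1.59 TPM in treated Smad3(RA/KP) cells, against 7.49 and 6.84 TPM in untreated ones, and 2.61 and 2.44 TPM in treated wild-type cells, against 10.3 and 5.51 TPM in untreated ones. Treated libraries were below untreated ones in each line, but the log2 fold changes of -0.97 in Smad3(RA/KP) cells (limma adjusted p = 0.148) and -1.28 in wild-type cells (0.074) did not pass.

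**Figure D2:**
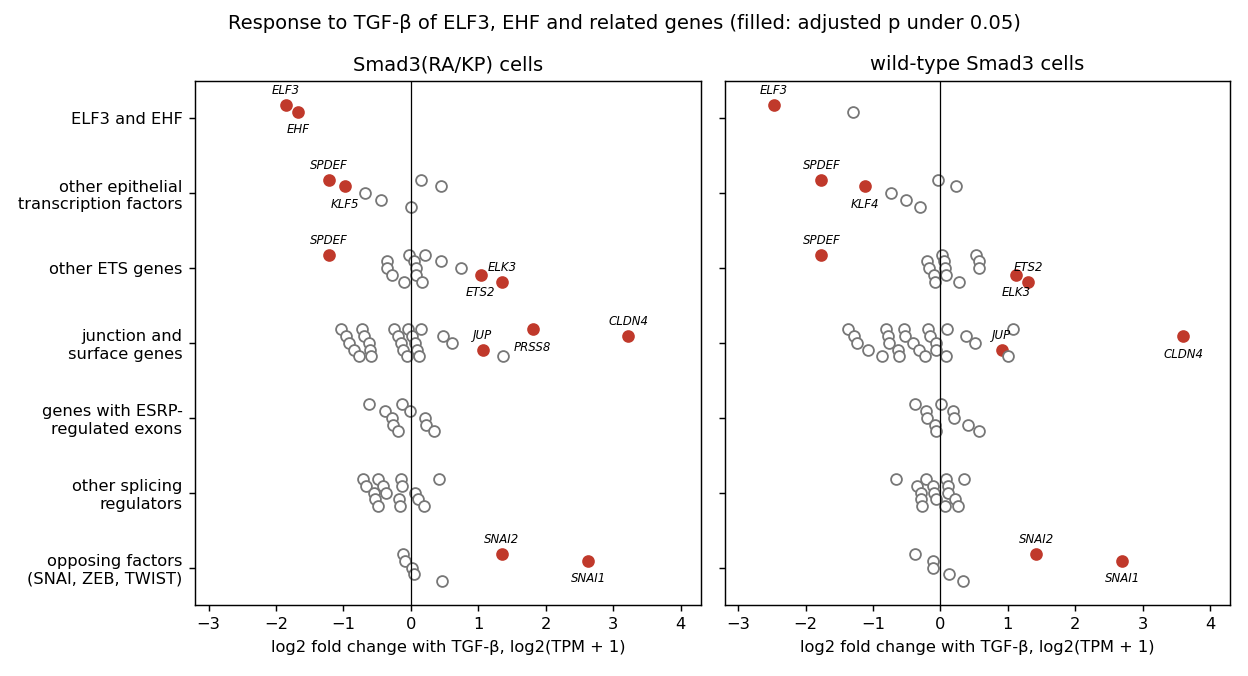
Log2 fold change with TGF-β of ELF3, EHF and the tested genes of 6 related lists in Smad3(RA/KP) cells (left) and wild-type cells (right), on the log2(TPM + 1) scale, each point a gene and filled where the adjusted p was under 0.05; genes not reported here are left out. ELF3 lies at -1.85 and -2.47, SPDEF at -1.22 and -1.77 and CLDN4 at 3.23 and 3.60, and no gene with ESRP-regulated exons or other splicing regulator is filled.

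Among 10 transcription factors known to oppose the epithelial state, 7 were tested, and 2 were called higher and 0 lower in each line, where 3.49% of all genes were called higher in Smad3(RA/KP) cells and 2.94% in wild-type cells. SNAI1, a zinc finger repressor of CDH1, had 24.9 and 44.5 TPM in treated Smad3(RA/KP) cells, against 5.96 and 3.39 TPM in untreated ones, and 31.1 and 33.7 TPM in treated wild-type cells, against 3.85 and 4.48 TPM in untreated ones. Its log2 fold change was 2.63 (limma adjusted p = 0.00235) in Smad3(RA/KP) cells and 2.69 (0.00178) in wild-type cells. SNAI2, its paralog, changed by 1.35 (limma adjusted p = 0.0199) and 1.42 (0.0156). ZEB1, a repressor that opposes GRHL2 and the ESRP genes in many carcinomas, stood at 2.30 and 4.29 TPM in treated Smad3(RA/KP) cells, against 2.03 and 5.52 TPM in untreated ones, and at 2.98 and 4.04 TPM in treated wild-type cells, against 1.96 and 3.26 TPM in untreated ones. The ZEB1 groups overlapped in both lines, and neither change passed. The SNAI1 call in wild-type cells was lost without treated replicate 1 (0.0536), and the SNAI2 calls without either treated library of the line concerned (0.0943 and 0.146 in Smad3(RA/KP) cells, 0.222 and 0.157 in wild-type cells). The Smad3(RA/KP) call of SNAI2 was also lost when untreated replicate 2 of the line (0.0788) or either treated wild-type library (0.0617 and 0.063) was left out, and the wild-type call without either untreated library of that line (0.16 and 0.117).

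Both lines responded to the treatment. Of 10 listed TGF-β targets, 9 were called higher in Smad3(RA/KP) cells, against 3.49% of all genes. In wild-type cells 10 of 10 were, against 2.94% of all genes. Among them was COL1A1 (log2 fold changes 4.05 and 3.79). The cells kept the keratins of a simple epithelium, with KRT8 at 4235 to 6862, KRT18 at 2533 to 5845 and KRT7 at 2965 to 5649 TPM, but KRT19 was listed at 0, EPCAM was at 1.40 to 3.95 TPM, and the surfactant genes SFTPA1, SFTPB and SFTPC were listed at 0. Of the fibroblast, endothelial and leukocyte markers, DCN, PECAM1, VWF, PTPRC, CD3E and MS4A1 were listed at 0 in all libraries; the 5 fibroblast markers summed to 1.14 to 5.61 TPM, the 3 endothelial ones to 0 to 0.21 TPM and the 4 leukocyte ones, all of it CD14, to 4.10 to 13.5 TPM. Whether a value listed at 0, that of KRT19 included, is absent RNA or a missing estimate was not tested. SMAD3 was at 137 to 187 TPM. The 2 untreated Smad3(RA/KP) libraries differed from each other along transcript GC content (replicate 2 minus replicate 1, Spearman rho -0.585 across 12386 genes, against 0.101 to 0.224 in the other groups); with that trend removed, ELF3 changed by -1.98 and EHF by -1.36 (limma adjusted p = 0.0409) in Smad3(RA/KP) cells.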

How the data were processed

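RNA was sequenced as poly(A) libraries from 8 samples, 2 in each of 4 groups that GEO's labels give. For each library the authors deposited a StringTie table with the TPM, the FPKM and the mean base coverage of 33122 gene records, made from reads aligned to GRCh38 (HISAT2 2.1.0 and StringTie 2.0.4, per the submitters' processing notes); the annotation was not given in the sources used here. Records of one symbol were summed. No counts are given, so no count model or counting interval was used; mapped bases were recovered from coverage over FPKM.

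limma 3.58.1 in R 4.3.3 was fitted to log2(TPM + 1) with 4 groups and the replicate number as a block, a mean-variance trend, genes averaging 1 TPM or more, and Benjamini-Hochberg adjustment over 13141 genes at 0.05 (3 residual and 5.9 prior degrees of freedom); fold changes of low genes are understated on this scale. The fit was tested on simulated data. The members, lists and tests were chosen with earlier results of these data known. List genes named are up to 4 per list and line that passed with the largest change, or up to 2 with the smallest p; some genes that this rule selects are not reported here. That equal replicate numbers mark one experiment is an assumption. Alternatives were pseudocounts of 0.5 and 5 TPM, no filter or a minimum mean of 5 TPM, quantile normalization, median-ratio scaling, FPKM, no trend, no replicate block or one in each line, removal of the GC trend, and leaving out each library. Promoter windows are RefSeq's. The p-values measure the spread between these libraries.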

Additional observations from a re-analysis of the deposited data

How the results depend on the processing

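The direction of ELF3 and EHF with TGF-β was the same in both lines under every alternative run. EHF had no value with a minimum mean of 5 TPM. Leaving out a library, ELF3 changed by -2.20 to -1.51 in Smad3(RA/KP) cells and by -2.75 to -2.19 in wild-type cells. The replicate numbers were used as a block on the assumption that they pair libraries of one experiment. Differences of replicate 1 from replicate 2 correlated at 0.0484 to 0.332 between groups. The lowest value was between treated and untreated Smad3(RA/KP) cells, and the highest between treated and untreated wild-type cells. With no replicate block the change of ELF3 kept its size (-1.85 and -2.47) but not its call (limma adjusted p = 0.288 and 0.190), and the genes called were 269 in Smad3(RA/KP) cells, 277 in wild-type cells and 1 between untreated lines. The count of genes called in Smad3(RA/KP) cells, 655, became 242 with no filter and 163 to 2622 without a library. In wild-type cells 615 genes were called, and this number became 287 with no filter, 1227 with the GC trend removed and 106 to 1011 without a library. The 3 genes of the difference of responses became 0 with a pseudocount of 5 TPM, with no filter and with the GC trend removed, 1 with a minimum mean of 5 TPM, and 0 to 8 without a library. The 2 genes between untreated lines became 1 with a pseudocount of 5 TPM, no trend or the GC trend removed, and 1 to 7 without a library. The 1 gene between treated lines became 2 with a pseudocount of 5 TPM, 0 with no filter, no trend or the GC trend removed, and 0 to 6 without a library. Among the related genes, calls of SPDEF, KLF4, KLF5, JUP and SNAI2 were also lost with no block (limma adjusted p = 0.109 to 0.342), and those of SPDEF, KLF4, KLF5, JUP, ELK3 in wild-type cells and ETS2 in Smad3(RA/KP) cells with no filter (0.0526 to 0.152). KLF4 in wild-type cells was also lost with a pseudocount of 5 TPM (0.056) and no trend (0.0661), JUP in wild-type cells with no trend (0.0765), KLF5 in Smad3(RA/KP) cells with no trend (0.0598) and a block within each line (0.127), and SPDEF in Smad3(RA/KP) cells with quantile normalization (0.0589) and a block within each line (0.0546). The causes were not tested. With 2 libraries a group, changes in the members below 1 TPM could not be resolved, and those of EHF rest on values of 0 to 3.85 TPM.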
